A study of Homo sapiens with 4 samples.

Results

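The 10 genes described here are CIITA, the invariant chain gene CD74, the alpha and beta chain genes HLA-DRA, HLA-DRB1, HLA-DPA1, HLA-DPB1, HLA-DQA1 and HLA-DQB1, and the peptide editor genes HLA-DMA and HLA-DMB. They were chosen by name from the 61267 genes of the deposited count table, and all 10 are in it. RNA was sequenced from SU-DHL-2 cells, an established line of human diffuse large B-cell lymphoma, wild type per the labels. One group received Spautin-1, an inhibitor of the deubiquitinases USP10 and USP13, at 10 µM for 36 h, and the other received vehicle. Each group held 2 libraries, and both groups grew in the same serum-supplemented medium. All cells are of 1 line, and the labels do not say whether the libraries came from separate cultures, so p-values measure the spread between these 4 libraries, which may be technical.

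MHC class II molecules carry peptides from endosomes to the surface of B cells, dendritic cells and macrophages, where CD4+ T cells read them. An alpha and a beta chain pair in the endoplasmic reticulum around the invariant chain, which fills the groove and steers the complex to endosomes, and there HLA-DM exchanges the last invariant chain fragment for antigen peptides. CIITA does not bind DNA itself. It docks on a complex of RFX, CREB and NF-Y factors assembled on X and Y boxes in the promoters of these genes, and loss of class II from lymphoma cells is known as a way of evading T cells.

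The promoter letters are shown because CIITA acts through X and Y boxes. What part they have in the values below was not tested. RefSeq promoter windows on GRCh38.p14, from 250 bases before to 50 bases after the start, were found for 8 of the 10 genes. No window was found for CIITA and HLA-DRA. HLA-DPA1 has 2 starts in that table, and the one with an X-box-like match is shown. Each stretch below runs 5′ to 3′ on the gene's own strand, from 130 to 31 bases before the start. Capitals mark an X-box-like run, CNAGNNAC, and the Y-box core, ATTGG, on either strand (CCAAT on the other). The single capital G that opens the HLA-DMA stretch is the end of a run that starts before the stretch.
HLA-DRB1 (chr6:32589879-32589978, minus strand): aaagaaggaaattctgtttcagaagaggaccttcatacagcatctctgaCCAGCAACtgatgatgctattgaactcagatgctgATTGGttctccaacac
HLA-DPA1 (chr6:33073680-33073779, minus strand): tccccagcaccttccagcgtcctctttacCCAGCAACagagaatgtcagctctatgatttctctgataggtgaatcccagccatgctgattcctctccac
HLA-DPB1 (chr6:33075860-33075959, plus strand): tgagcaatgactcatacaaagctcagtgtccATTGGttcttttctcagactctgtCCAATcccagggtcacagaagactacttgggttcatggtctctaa
HLA-DQA1 (chr6:32637276-32637375, plus strand): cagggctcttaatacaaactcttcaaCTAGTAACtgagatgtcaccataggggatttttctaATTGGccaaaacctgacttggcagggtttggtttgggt
HLA-DQB1 (chr6:32666688-32666787, minus strand): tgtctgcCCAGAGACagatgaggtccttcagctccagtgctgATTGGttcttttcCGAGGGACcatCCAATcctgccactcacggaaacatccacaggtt
HLA-DMA (chr6:32953128-32953227, minus strand): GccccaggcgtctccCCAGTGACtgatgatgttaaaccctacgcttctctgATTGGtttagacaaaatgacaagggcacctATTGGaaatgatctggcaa
HLA-DMB (chr6:32941059-32941158, minus strand): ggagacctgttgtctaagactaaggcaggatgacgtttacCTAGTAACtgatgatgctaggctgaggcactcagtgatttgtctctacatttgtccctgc
CD74 (chr5:150412941-150413040, minus strand): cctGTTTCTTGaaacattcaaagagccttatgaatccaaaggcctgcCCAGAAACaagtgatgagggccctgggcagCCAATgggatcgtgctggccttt
The 2 runs were picked after looking at these windows, so the shares that follow describe them and test nothing. Over the whole window, 7 of the 8 genes held CNAGNNAC, against 39.3% of 35116 RefSeq promoters, and 7 held ATTGG, against 34.6%. HLA-DPA1 was counted by the better of its 2 windows, while the shares over RefSeq are per promoter. An ordered pair on the gene's strand, CNAGNNAC and then ATTGG at most 30 bases on, was found for HLA-DRB1, HLA-DQA1, HLA-DQB1 and HLA-DMA, and in 0.632% of all promoters. The gap between the runs was 27 bases in HLA-DRB1 and HLA-DQB1 and 28 bases in HLA-DQA1 and HLA-DMA. HLA-DMB and HLA-DPA1 had the first run without an ATTGG at that distance, HLA-DPB1 had Y-box letters without the first run, and CD74 had its Y-box letters as CCAAT. The letters describe the reference sequence. None of the 4 genes with the pair was called in the comparison below, and 2 of them were not tested. HLA-DRA and CIITA, which were called, had no window, so whether they hold the pair was not examined.

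Levels are given as CPM, the usual scaling of a gene's counts to the size of its library, here with TMM factors. The libraries held 38325536 and 34893634 counts with Spautin-1 and 34115420 and 38362526 with vehicle. Of the genes with 1 to 10 counts in a library, 75.5% to 78.1% had an even count. Of those with 11 to 100 counts, where many of the HLA counts below lie, 65.1% to 65.6% did. The number of independent fragments behind such a count may therefore be smaller than the count. Whether both mates of a pair were counted is not stated in the labels. The B cell identity in the labels was checked on 8 B cell markers, whose summed level was 997 and 960 CPM with Spautin-1 and 743 and 654 CPM with vehicle. CD22 and MS4A1 (CD20) among them were called higher, by 1.81-fold and 1.51-fold (edgeR adjusted p = 0.000283 and 0.00142). The 8 T and NK cell markers summed to 1.01 and 1.27 CPM with Spautin-1 and 1.61 and 1.35 CPM with vehicle. The 8 markers of monocytes, macrophages and dendritic cells, the other cells that carry class II, summed to 3.07 and 2.22 CPM with Spautin-1 and 2.97 and 1.81 CPM with vehicle, with CLEC9A at 0 in all libraries. Of the T and NK cell markers, KLRD1 was at 0 in all libraries, and CD2 and CD3E were at 0 in both Spautin-1 libraries. The 8 stromal, endothelial and epithelial markers summed to 52.1 and 55.6 CPM with Spautin-1 and 46.4 and 52.6 CPM with vehicle, nearly all of it EPCAM, with CDH5 at 0. In bulk RNA, a change in the share of cells with a transcript and a change in RNA per cell cannot be told apart.

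Spautin-1 was followed by higher mRNA levels of CIITA, CD74, HLA-DRA, HLA-DPA1 and HLA-DMB, from a very low base for the HLA genes. These 5 were called higher and none lower, by the quasi-likelihood test of edgeR with p-values adjusted over all genes by the Benjamini-Hochberg method and a threshold of 0.05. DESeq2 and limma-voom also called 5 higher and 0 lower, and at an unadjusted p under 0.05 edgeR gave 6 higher and 0 lower. The background is large: 11.5% of the 18368 genes tested were called higher and 10.5% lower, together 22.0%. Of the 10 genes, 8 passed the filter on low counts, and each of these also met its minimum in both vehicle libraries. The median log2 fold change of these 8 was 0.85, beside -0.01 over all genes tested. In 7 of the 8, both Spautin-1 libraries lay above both vehicle libraries, a separation seen in 30.8% of all genes tested. With 2 libraries in each group, the smallest p an exact permutation test allows is 0.333. The count of genes called was 3 with either treated library omitted, 6 when vehicle replicate 1 was left out and 5 when vehicle replicate 2 was left out. A group left with 1 library was assumed there to vary like the other.

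**Figure D1:**
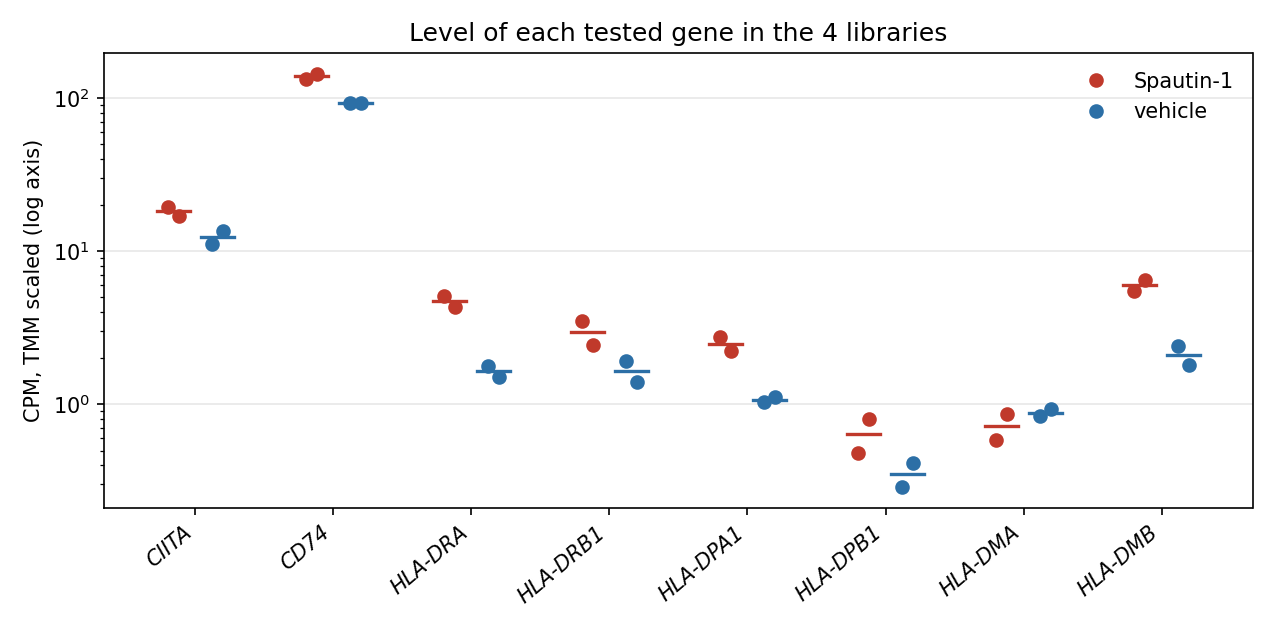
Levels of the 8 tested genes in CPM (scaled by TMM, log axis). Each point is a library, Spautin-1 in red and vehicle in blue, and each bar is the mean of 2 libraries. CD74 lies between 92.5 and 144 CPM, HLA-DPB1 lies between 0.288 and 0.808 CPM, and the HLA-DMA libraries overlap between groups.

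CIITA, the coactivator that switches the pathway on (chromosome 16, 10866222 to 10943021, GRCh38), had 725 and 593 counts with Spautin-1 and 390 and 526 with vehicle. Scaled, it was at 19.3 and 17.1 CPM with Spautin-1, against 11.2 and 13.6 CPM with vehicle. Both treated libraries were above both controls. The log2 fold change was 0.55 ± 0.16 (± SE), a 1.47-fold rise (edgeR adjusted p = 0.0316). Its call was lost when Spautin-1 replicate 1 was dropped (0.45, adjusted p = 0.27) and when Spautin-1 replicate 2 was dropped (0.64, adjusted p = 0.0926), and adjusted p ran from 0.000325 to 0.27 over all 15 alternatives in edgeR, limma-voom and DESeq2. CIITA shares 2424 of its 22553 exonic bases with DEXI on the opposite strand and 2378 with an unnamed gene on its own strand, and the labels do not give the strand setting of the counting. DEXI itself had 650 and 524 counts with Spautin-1 and 535 and 626 with vehicle.

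CD74 (chromosome 5, 150401637 to 150412969) encodes the invariant chain and was by far the most abundant of the group per length. It had 5040 and 5005 counts with Spautin-1 and 3214 and 3580 with vehicle. Scaled, it was at 134 and 144 CPM with Spautin-1, against 92.5 and 92.7 CPM with vehicle. The vehicle libraries were nearly equal and the groups did not overlap. CD74 rose 1.51-fold, with a log2 fold change of 0.59 ± 0.11 and a 95% interval of 0.36 to 0.82 (edgeR adjusted p = 0.00223). CD74 made up 78.3% and 80.8% of the summed CPM of the 10 genes with Spautin-1, against 82.5% and 81.6% with vehicle. The call was lost in 1 of 15 alternatives, without Spautin-1 replicate 2 (0.55, adjusted p = 0.0564; range over the alternatives 5.26e-09 to 0.0564).

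Among the chains, the DR pair comes first. HLA-DRA (chromosome 6, 32439878 to 32445046), the nearly invariant alpha chain of HLA-DR, had 192 and 150 counts with Spautin-1, against 62 and 58 with vehicle. These are 5.12 and 4.33 CPM with Spautin-1 and 1.79 and 1.50 CPM with vehicle. Both treated libraries were well above both controls. HLA-DRA rose 2.88-fold, with a log2 fold change of 1.52 ± 0.27 (edgeR adjusted p = 0.00215). HLA-DRA was called in all 15 alternatives, at 1.39 to 1.65 and adjusted p from 6.66e-06 to 0.0058.

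HLA-DRB1 (chromosome 6, 32577902 to 32589848), the polymorphic beta chain that pairs with it, was at 3.49 and 2.45 CPM with Spautin-1 and 1.93 and 1.40 CPM with vehicle. The groups did not overlap, but the treated libraries lay farther from each other than the lower of them lay from the nearer control. It missed the threshold, with a log2 fold change of 0.84 ± 0.33 and a 95% interval of 0.13 to 1.55 (edgeR adjusted p = 0.0864). HLA-DRB5, a second DR beta gene, is near-identical in places; their promoter windows are the same at 92.2% of 256 aligned bases. HLA-DRB5 had 47 and 27 counts with Spautin-1 and 13 and 19 with vehicle (log2 fold change 1.22 ± 0.56, edgeR adjusted p = 0.138), and reads may be split between both genes. Summed into 1 gene, a choice made after seeing the data, they held 178 and 112 counts with Spautin-1 and 80 and 73 with vehicle, and the sum was called (log2 fold change 0.93, edgeR adjusted p = 0.0392). HLA-DRB1 was also called without vehicle replicate 1 (1.09, adjusted p = 0.022). Its adjusted p ran from 0.022 to 0.475 over 16 alternatives.

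The DP pair was lower still per kilobase. HLA-DPA1 (chromosome 6, 33064569 to 33080775), the DP alpha chain, had 103 and 77 counts with Spautin-1, against 36 and 43 with vehicle, or 2.75 and 2.22 CPM with Spautin-1 and 1.04 and 1.11 CPM with vehicle. Both treated libraries were above both controls. HLA-DPA1 rose 2.31-fold, with a log2 fold change of 1.21 ± 0.34 (edgeR adjusted p = 0.0262). The call was lost without Spautin-1 replicate 1 (1.03, adjusted p = 0.166; range over 15 alternatives 0.00976 to 0.166). HLA-DPB1 (chromosome 6, 33075990 to 33089696), the DP beta chain, had 18 and 28 counts with Spautin-1 and 10 and 16 with vehicle. Both treated libraries were above both controls, at 0.480 and 0.808 CPM with Spautin-1 and 0.288 and 0.414 CPM with vehicle. The log2 fold change of 0.86 ± 0.65 has a 95% interval of -0.56 to 2.28 (edgeR adjusted p = 0.383), so at this depth neither no change nor a rise like that of HLA-DPA1 is outside it. It was called in 0 of 13 alternatives, with adjusted p from 0.331 to 0.849. HLA-DPA1 and HLA-DPB1 overlap head to head on opposite strands by 96 exonic bases.

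The DQ genes were close to unread. HLA-DQA1 (chromosome 6, 32628179 to 32647062) had 0 and 0 counts with Spautin-1 and 2 and 0 with vehicle, and HLA-DQB1 (chromosome 6, 32659467 to 32668383) had 0 and 0 with Spautin-1 and 0 and 4 with vehicle. Neither was tested. If counts are independent, a count of 0 allows up to 3 counts, which is 0.0800 and 0.0866 CPM in the Spautin-1 libraries. This limit covers counting error only, and it would be higher if both mates of a pair were counted. HLA genes are highly polymorphic, and reads from alleles far from the reference may not be assigned, whose part here was not tested. A change in DQ was not detectable at this depth.

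HLA-DM is the editor that loads peptide, and of its chains HLA-DMB was called higher and HLA-DMA was not called. HLA-DMB (chromosome 6, 32934629 to 32941028), the DM beta chain, was at 5.49 and 6.47 CPM with Spautin-1, against 2.42 and 1.81 CPM with vehicle. That is 206 and 224 counts with Spautin-1 and 84 and 70 with vehicle, with no overlap. HLA-DMB rose 2.83-fold, with a log2 fold change of 1.50 ± 0.26 (edgeR adjusted p = 0.00167). HLA-DMB was called in all 16 alternatives, at 1.27 to 1.72 and adjusted p from 3e-07 to 0.00463. HLA-DMA (chromosome 6, 32948613 to 32969094), the DM alpha chain, was at 0.586 and 0.866 CPM with Spautin-1 and 0.835 and 0.932 CPM with vehicle. Its groups overlapped, on 22 and 30 counts with Spautin-1 and 29 and 36 with vehicle. The log2 fold change was -0.29 ± 0.51, with a 95% interval of -1.39 to 0.82 (edgeR adjusted p = 0.738), which leaves out a rise of the size fitted for HLA-DMB. HLA-DMA stayed below 0 in 14 alternatives, from -0.58 to -0.04, and was called in 0 of them (adjusted p from 0.659 to 0.98).

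Within a library, the ratio of HLA-DMB to HLA-DMA per kilobase was 5.12 and 4.08 with Spautin-1, against 1.58 and 1.06 with vehicle. The ratio was higher in both treated libraries, and the exact permutation test (two-sided, n = 2 each) cannot go below 0.333. A readthrough gene over both, ENSG00000248993, shares 438 exonic bases with HLA-DMB and 160 with HLA-DMA, and had 79 and 98 counts with Spautin-1 and 49 and 53 with vehicle. With the readthrough added to HLA-DMB, an alternative chosen after seeing the data, the log2 fold change was 1.27 (edgeR adjusted p = 0.00183). The readthrough was not added to HLA-DMA, although it had more counts than HLA-DMA in every library. With the readthrough added, the HLA-DMA counts would be higher in both Spautin-1 libraries than in both vehicle libraries. The counts of HLA-DMA alone overlapped between groups. No fit was run on that sum, so its fold change was not tested. The ratio above and the fitted value of HLA-DMA leave the readthrough out. HLA-DMA also shares 55 bases with BRD2 on the opposite strand, a gene with 22659 to 27284 counts per library.

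**Figure D2:**
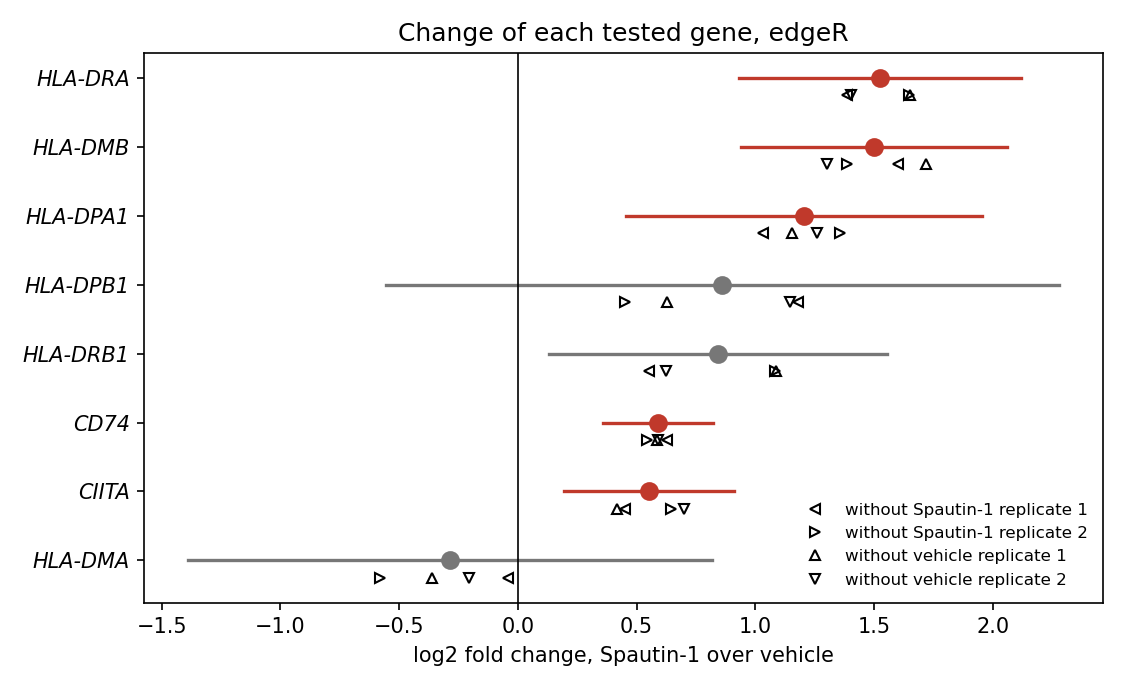
Log2 fold change of Spautin-1 over vehicle for the 8 tested genes, with 95% intervals. Red marks the 5 called genes, grey the others, and open triangles give the value without each library. HLA-DRA and HLA-DMB lie at 1.52 and 1.50, and HLA-DMA, at -0.29 without the readthrough gene, is the only gene below 0.

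Levels of different genes were compared as CPM per kilobase of exonic length (RPKM), which uses the union of all annotated exons and so can understate genes with many transcripts. CIITA, at 22553 bases, has the longest of these unions and HLA-DRA, at 1244, the shortest. With Spautin-1 the order by mean was CD74 (30.8 RPKM), HLA-DRA (3.80), HLA-DMB (1.30), HLA-DRB1 (0.964), CIITA (0.808), HLA-DPA1 (0.432), HLA-DMA (0.288) and HLA-DPB1 (0.123). With vehicle it was CD74 (20.5 RPKM), HLA-DRA (1.32), CIITA (0.551), HLA-DRB1 (0.540), HLA-DMB (0.459), HLA-DMA (0.351), HLA-DPA1 (0.187) and HLA-DPB1 (0.0672). HLA-DRB1 and CIITA overlapped in both groups, and HLA-DMB overlapped both of them in the vehicle group, so these neighbours do not differ beyond their spread. CD74 per kilobase was 7.21 and 9.17 times HLA-DRA with Spautin-1, against 14.2 and 17.0 times with vehicle. The ratio was lower in both treated libraries. Summed over the 6 classical chains, the level was 11.8 and 9.81 CPM with Spautin-1 and 5.10 and 4.53 CPM with vehicle.

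**Figure D3:**
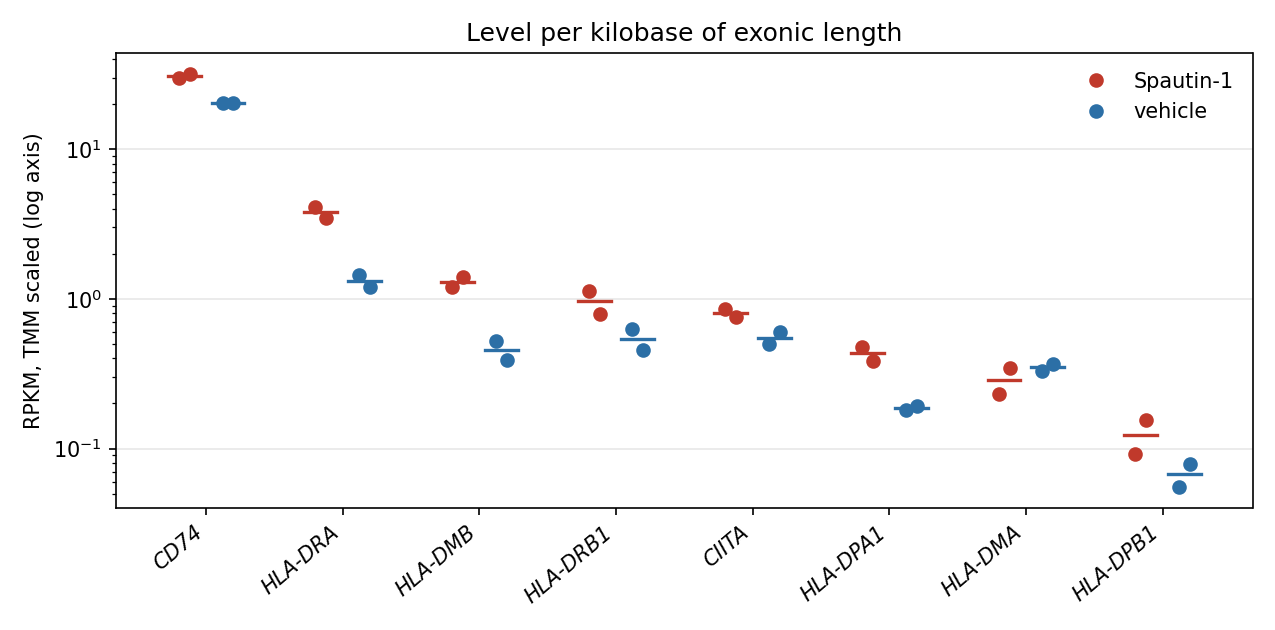
Levels per kilobase of exonic length (RPKM, TMM scaled, log axis) of the 8 tested genes, ordered by their mean with Spautin-1. Points are libraries and bars are means of 2, Spautin-1 in red and vehicle in blue. CD74 lies at 29.7 and 31.9 RPKM with Spautin-1 and 20.4 and 20.5 RPKM with vehicle, and HLA-DRA, the next, at 4.11 and 3.48 RPKM with Spautin-1 and 1.43 and 1.21 RPKM with vehicle.

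The rest of the class II region was sparse. Of 13 other class II loci, 11 were in the table, 6 had no count in any library, and 3 passed the filter: HLA-DRB5, HLA-DOA and HLA-DOB. None was called (0 of 3 by edgeR, DESeq2 and limma-voom), and 1, HLA-DRB5, had an unadjusted p under 0.05. HLA-DOA and HLA-DOB form HLA-DO, the B cell inhibitor of HLA-DM. HLA-DOA was at 1.01 and 0.577 CPM with Spautin-1 and 0.403 and 0.466 CPM with vehicle, and HLA-DOB at 1.49 and 2.28 CPM with Spautin-1 and 2.25 and 1.22 CPM with vehicle. HLA-DOB overlapped between groups.

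The factors that hold CIITA at these promoters had a median near that of all genes. Of 18 promoter factors and cofactors, 1 was called higher and 2 lower, with a median log2 fold change of 0.02, beside 22.0% of all genes called. RFXAP, a subunit of the RFX complex whose loss abolishes class II, was at 8.85 and 8.05 CPM with Spautin-1 and 13.6 and 14.4 CPM with vehicle, a log2 fold change of -0.73 ± 0.17 (edgeR adjusted p = 0.009). RFXAP thus went the other way from CIITA and HLA-DRA. The other RFX subunits were not called in the main fit, which has no replicate block or GC offset. RFX5 was at 68.7 and 68.8 CPM with Spautin-1 and 60.8 and 55.5 CPM with vehicle (edgeR adjusted p = 0.159). RFXANK was at 15.9 and 16.4 CPM with Spautin-1 and 11.6 and 12.2 CPM with vehicle (edgeR adjusted p = 0.0617). RFX5 was called in 2 of 15 alternatives. These were a GC offset with a replicate block (0.26, edgeR adjusted p = 0.0461) and the fit without vehicle replicate 1 (0.31). RFXANK was called in 4 of 15 alternatives. These were a GC offset (0.54, edgeR adjusted p = 0.0141), a replicate block (0.44, adjusted p = 0.049), both together (0.54, adjusted p = 0.00436) and the fit without vehicle replicate 2 (0.47). CREB1, an X-box binder, was called higher at 0.37 ± 0.12 and SMARCA4, a chromatin remodeller that CIITA uses, lower at -0.39 ± 0.09 (edgeR adjusted p = 0.0445 and 0.0112). Without Spautin-1 replicate 1 the list had 0 higher and 1 lower, without Spautin-1 replicate 2 it had 0 of each, and with either vehicle library omitted 3 of each. RFXAP lost its call when Spautin-1 replicate 2 was left out (log2 fold change -0.66, adjusted p = 0.119, range over 15 alternatives 5.19e-05 to 0.119), and SMARCA4 with either treated library omitted. CREB1, the list's one gene called higher, was called in 9 of 15 alternatives: its call was also lost with either treated library omitted, with upper quartile or library size scaling, with no filter and with a GC offset (adjusted p from 0.0034 to 0.314 over all 15).

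Of 21 tested genes known to act on CIITA transcription, 8 were higher and 3 lower, with a median log2 fold change of 0.35, beside 11.5% of all genes called higher and 10.5% lower. PRDM1 (BLIMP-1), the plasma cell repressor that silences the CIITA promoter, was at 114 and 127 CPM with Spautin-1 and 18.4 and 19.0 CPM with vehicle, a 6.44-fold rise (edgeR adjusted p = 9.81e-08). FOXP1, described as a repressor of class II genes in lymphoma, rose 2.94-fold to 95.8 and 100.4 CPM with Spautin-1, against 35.3 and 31.4 CPM with vehicle (edgeR adjusted p = 6.55e-06). IRF4, a B cell and plasma cell factor, rose 2.43-fold to 75.0 and 77.7 CPM with Spautin-1, against 34.2 and 28.7 CPM with vehicle. The 8 genes that rose thus include repressors as well as activators: IRF1, IRF2 and IRF8, which bind CIITA promoters, the B cell coactivator POU2AF1 and the histone methyltransferase EZH2 are the others. BCL6, the germinal centre repressor, fell to 27.5 and 28.0 CPM with Spautin-1, against 46.2 and 48.1 CPM with vehicle (log2 fold change -0.76 ± 0.12, edgeR adjusted p = 0.00116), and POU2F2 and USF1 were also lower. PAX5 was at 151 and 147 CPM with Spautin-1 and 158 and 132 CPM with vehicle, and SPI1 (PU.1) at 50.3 and 49.7 CPM with Spautin-1 and 41.0 and 53.7 CPM with vehicle. PAX5 and SPI1 were not called (edgeR adjusted p = 0.837 and 0.746). With a library left out, 5 to 11 regulators were higher and 2 to 4 lower, the fewest higher without Spautin-1 replicate 1 and the most without vehicle replicate 1. PRDM1 is also 1 of 6 plasma cell markers, which summed to 926 and 1106 CPM with Spautin-1 and 475 and 746 CPM with vehicle. Most of that sum was XBP1, at 781 and 943 CPM with Spautin-1 and 422 and 691 CPM with vehicle. PRDM1 and XBP1 of 5 tested were called higher, and XBP1 was not called with DESeq2 (adjusted p = 0.235, the highest of its 15 alternatives, of which 14 called it). MZB1 was at 18.4 and 20.6 CPM with Spautin-1 and 23.4 and 27.5 CPM with vehicle and was not called, JCHAIN was not called, and SDC1 overlapped between groups. What part these values have in the class II values was not tested.

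In the endosomal processing list, 1 of 10 tested genes was higher and 0 lower, with a median of -0.03 (edgeR, DESeq2 and limma-voom alike; 2 were lower at an unadjusted p under 0.05), beside 11.5% of all genes called higher and 10.5% lower. CTSH, a lysosomal aminopeptidase, rose 1.49-fold to 386 and 355 CPM with Spautin-1, against 239 and 259 CPM with vehicle (edgeR adjusted p = 0.00167). CTSS, the protease that trims the invariant chain in B cells, was at 19.7 and 18.7 CPM with Spautin-1 and 17.6 and 17.0 CPM with vehicle (adjusted p = 0.508). Without vehicle replicate 1, 2 genes of it were called lower. Among 15 genes of class II turnover and trafficking, 3 were higher and 3 lower, with a median log2 fold change of 0.02, beside 11.5% and 10.5% of all genes. MYO1E, a myosin tied to class II transport in dendritic cells, rose 2.10-fold, and the tetraspanin CD53 was at 35.9 and 35.2 CPM with Spautin-1 and 23.3 and 21.8 CPM with vehicle (edgeR adjusted p = 0.000126 and 0.00406); the call of CD53 was lost without Spautin-1 replicate 1. CD83, which protects class II from the ubiquitin ligase MARCHF1, fell to 437 and 444 CPM with Spautin-1, against 609 and 708 CPM with vehicle (edgeR adjusted p = 0.00148). MARCHF1 itself was not called (0.31 ± 0.17, adjusted p = 0.216). CD37 was the other gene called higher, and RAB7A and CD82 were the others called lower. CD82, a tetraspanin like CD53, was at 3.68 and 2.77 CPM with Spautin-1 and 6.33 and 7.19 CPM with vehicle (edgeR adjusted p = 0.00723). With a library left out, 2 to 4 of the list were higher and 1 to 4 lower.

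Other genes described to carry X-Y modules or CIITA binding showed 2 of 12 higher and 1 lower, with a median of 0.11, near the shares of all genes called higher (11.5%) and lower (10.5%). The butyrophilins BTN3A3 and BTN3A2 rose 1.96-fold and 1.69-fold (edgeR adjusted p = 0.0119 and 0.0125), and PLXNA1, a semaphorin receptor, fell to 31.1 and 27.9 CPM with Spautin-1, against 49.7 and 62.9 CPM with vehicle. With a library left out, 1 to 4 were higher and 1 to 3 lower, with the fewest higher when a Spautin-1 library was omitted, which ended the call of BTN3A2. Among the 9091 genes that have a symbol and average 5 CPM or more, the one whose profile over the 4 libraries was closest to that of CIITA was BTN2A2, a butyrophilin of this list. Its root mean square distance from CIITA was 0.0122 on the log2 CPM scale, followed by CCT6P1 (0.0187), CEP72 (0.0352), RNF146 (0.0373) and HEXD (0.0386). BTN2A2 was at 7.97 and 7.07 CPM with Spautin-1 and 4.55 and 5.64 CPM with vehicle, and was not called (0.56 ± 0.21, edgeR adjusted p = 0.0764; called in 4 of 15 alternatives, 0.014 to 0.371). A distance over 4 libraries is a description of these libraries. The distance of CD74 from CIITA was 0.14, and those of HLA-DRA and HLA-DMB were 0.69 and 0.72.

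**Figure D4:**
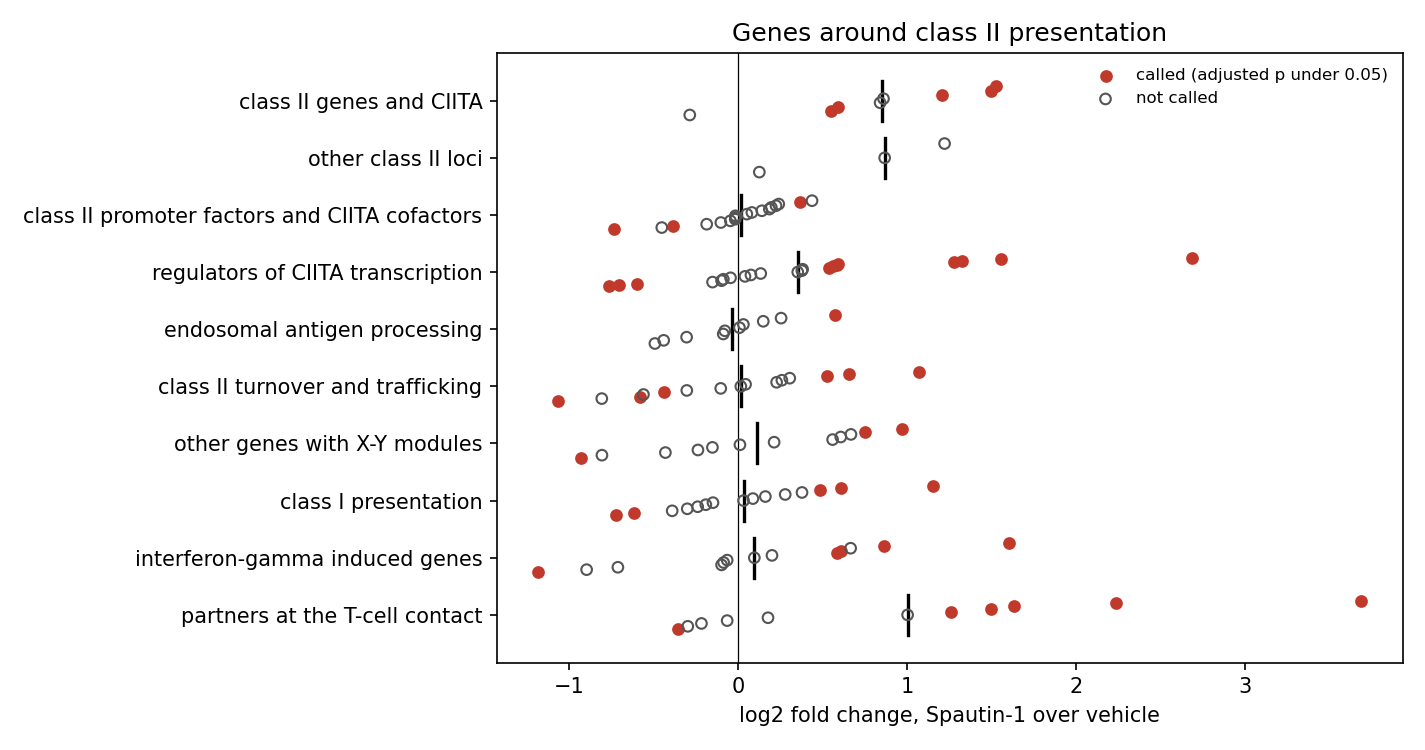
Log2 fold change of Spautin-1 over vehicle for every tested gene of each list. Filled red points were called, open points were not, and the black bar is the list's median. The class II genes and CIITA have a median of 0.85, the promoter factors 0.02, and the regulators of CIITA spread from BCL6 at -0.76 to PRDM1 at 2.69.

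Of 15 tested class I genes, which share part of this promoter module, 3 were higher, 2 lower and 10 not called, with a median of 0.03, near the shares over all genes of 11.5% higher and 10.5% lower. NLRC5, the class I counterpart of CIITA, was at 11.1 and 10.6 CPM with Spautin-1 and 7.03 and 7.22 CPM with vehicle (log2 fold change 0.61 ± 0.18, edgeR adjusted p = 0.0278). The call of NLRC5 was lost with either treated library omitted. The 2 genes called lower were HLA-B and HLA-C. HLA-C fell to 167 and 182 CPM with Spautin-1, against 218 and 358 CPM with vehicle (edgeR adjusted p = 0.012, but not called with DESeq2), while ERAP2 rose 2.22-fold and HLA-E 1.40-fold, HLA-E not being called with either treated library omitted. With a library left out, 1 to 3 were higher and 1 to 3 lower. Of 13 tested interferon-gamma induced genes, which include IRF1 and NLRC5, 4 were higher and 1 lower, with a median of 0.10, beside 11.5% and 10.5% of all genes. GBP2, a guanylate-binding protein, rose 3.04-fold and CXCL10 1.82-fold, while CXCL11 was lower at -1.18 ± 0.37 (edgeR adjusted p = 0.000609, 0.0144 and 0.0402). With a library left out, 1 to 4 were higher, the fewest without Spautin-1 replicate 1, and 0 or 1 lower; CXCL11 lost its call whichever library was left out and, with all 4, under DESeq2 (adjusted p = 0.0602, range over 15 alternatives 0.0121 to 0.198), and CXCL10 lost its call without Spautin-1 replicate 1.

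The last list holds partners of class II at the contact with T cells. Of 11 tested, 5 were higher and 1 lower, beside 11.5% and 10.5% of all genes, and 5 were higher whichever library was left out. ICOSLG, 1 of the 5, passed the filter only through the group where it is high: it had 106 and 76 counts with Spautin-1 and 8 and 6 with vehicle, under the filter's 0.273 CPM in both vehicle libraries. CD274 (PD-L1), an inhibitory ligand, rose 4.72-fold to 50.8 and 51.6 CPM with Spautin-1, against 11.6 and 10.1 CPM with vehicle (edgeR adjusted p = 1.17e-06). CD70, a costimulatory TNF family ligand, rose 3.11-fold, and CD80 and CD58 were also called higher. CD86, the partner of CD80, was lower at -0.36 ± 0.11 (edgeR adjusted p = 0.0406) and lost its call with either treated library omitted.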

How the data were processed

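Stranded mRNA libraries were sequenced from 2 Spautin-1 and 2 vehicle samples, per the labels' protocols. Per the submitters' processing notes, Trimmomatic 0.36, featureCounts, Subread 1.5.1, edgeR 3.12.1 and GRCh38 were used. The deposited table gives whole-number read counts for each gene, not normalized, and an exonic length, per the file headers. Neither the labels nor the headers name an aligner or annotation release, and the strand setting and any use of multi-mapping reads are likewise not stated.

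The quasi-likelihood test was run in edgeR 4.0.16 under R 4.3.3, two-sided, with TMM scaling, filterByExpr at a minimum count of 10 and a minimum total of 15, which left 18368 genes, and Benjamini-Hochberg adjustment at a threshold of 0.05. CPM and RPKM are TMM scaled, and log2 CPM profiles use a prior count of 2. Intervals and floors cover counting error or the spread of 4 libraries.

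The genes and lists were chosen with earlier results of these data known. Of 176 listed genes, 174 were in the table. All 10 class II genes and CIITA are named. From each other list, the rule names the called genes with the lowest p, 2 in the direction with more calls and 1 in the other. Counts of 5 or fewer may be named in full. RFX5, RFXAP, RFXANK, SPI1, IRF4, PAX5, PRDM1 and the 5 profiles nearest to CIITA are always named. CTSS, MARCHF1, IRF1, IRF2, IRF8, EZH2, POU2AF1, SDC1, MZB1, JCHAIN and the overlapping genes were named after their values were seen.

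Alternatives were other scalings and filters, DESeq2 1.42.0, limma-voom (limma 3.58.1), a replicate block, a GC offset and leaving out each library. Halved counts and 2 summed gene pairs were added after the data were seen. The scripts were tested on simulated data. Promoter sequences came from RefSeq.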

Additional observations from a re-analysis of the deposited data

How the results depend on the processing

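Called genes were totalled over all genes, over the class II genes and CIITA, and over the listed genes. These totals kept within 1.5 times under other scalings, filters, tools, GC offsets and halved counts (chosen after seeing the data). They changed most with the library left out. Counts in single lists moved more. With a GC offset and a replicate block together, promoter factors called higher went from 1 to 3 and genes with X-Y modules from 2 to 5. Leaving out each library gave 1847 to 5766 genes called, 1067 to 2981 higher and 780 to 2785 lower, beside 4045, 2112 and 1933 with all 4. The class II genes and CIITA called numbered 3 to 6 and higher 3 to 6, beside 5, and the list genes called numbered 24 to 51, beside 38. None of the class II genes or CIITA changed direction in any alternative, but no alternative added the readthrough gene to HLA-DMA. The counts of that sum would be higher in both Spautin-1 libraries than in both vehicle libraries. Over those genes, 111 of the alternative fits kept direction and call, 4 lost a call and 4 gained one, the gains all in HLA-DRB1. Leaving out each library, the log2 fold change of SPI1 ran from -0.11 (without vehicle replicate 1) to 0.29 (without vehicle replicate 2, called), and that of PAX5 from -0.083 (without vehicle replicate 2) to 0.18 (without vehicle replicate 1). No label ties libraries of the same number to 1 culture. The deviations of same-numbered libraries correlated at 0.12 over 9942 genes. With the replicate block, 5100 genes and 6 of the class II genes and CIITA were called, the addition being HLA-DRB1 (log2 fold change 0.83, adjusted p = 0.0485 in edgeR, and 0.88 and 0.0314 with the block and a GC offset). Depth limits the DQ genes, HLA-DPB1 and HLA-DMA, which had 0 to 36 counts per library. HLA-DMA and HLA-DPB1 have no value where the filter of 1 CPM in 2 libraries removed them, and HLA-DPB1 has none with halved counts.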
